A study of Mus musculus with 92 samples.

Results

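The 8 genes described here encode surface and effector proteins of monocytes. They are Ly86, Cd14, Ccr2, Ly6c2, Ms4a6b, Ms4a6c, F13a1 and Ctss, taken by name from the 23956 genes of the deposited table. Levels were read in every one of 92 single cells, by sort gate and by the state name that the authors gave each cell. The cells came from bone marrow of C57BL/6 mice of genotype Gfi1-R412X/R412X, which carry a premature stop on both copies of the gene for the transcriptional repressor GFI1. No treatment is named in the labels, and no age or animal. Hindlimb marrow was enriched on CD117 beads (CD117 is the receptor encoded by Kit, found on progenitors), sorted, captured on a Fluidigm C1 chip and sequenced at full transcript length. The gates were GMP (usually read as granulocyte-monocyte progenitor), with 45 cells, and CD11b+ GMP-P, with 47 cells. All 92 cells carry the mutation, so its effect was not analysed here. Each gate is 1 set of cells under 1 date code, without a replicate, so gate, animal, run and date cannot be told apart. Cells of a gate are not replicates, no test was made, and each SD below is the spread of cells.

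Monocytes and neutrophils arise from shared progenitors in the marrow. The monocyte branch is known to depend on the transcription factor IRF8 and the granulocyte branch on GFI1, which is known to repress monocyte genes. The products of these genes let monocytes sense bacterial lipopolysaccharide, leave the marrow along chemokine gradients, cross-link fibrin and degrade proteins in lysosomes. Ly6C, the product of Ly6c2 together with its near copy Ly6c1, is the marker used to sort inflammatory mouse monocytes, and it is also present on other marrow cells.

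The GMP gate held 5 Multi-Lin, 5 MP, 3 cMoP, 24 Mono, 6 Gran-1 and 2 Gran-2 cells by the authors' names. The CD11b+ GMP-P gate held 1 Multi-Lin, 1 Mono, 4 Gran-1, 20 Gran-2, 3 Myelo-1, 15 Myelo-2 and 3 Myelo-4 cells. The sources used here do not say how the names were made, and these 8 genes may have helped to set them, so levels by state are a description. Irf8 was above 10 TPM (transcript abundance corrected for transcript length and scaled to the same total in each cell) in 21 of the 27 Mono and cMoP cells of the GMP gate, and Csf1r, the receptor for the monocyte growth factor M-CSF, in 14. The same 27 cells also held neutrophil primary granule genes at a median of 6.05% of TPM (9 genes, range of the sum 22901 to 90113 TPM), against 8.43% in the 8 Gran cells of that gate. The 1 Mono cell of the CD11b+ GMP-P gate (cell 70) went against its name in part. It had Irf8 at 0 TPM, Csf1r at 0.12 TPM and Ly86 at 0.52 TPM, with S100a8, a calcium-binding protein gene abundant in neutrophils and also expressed by monocytes, at 24498 TPM. It also held 4 of the 7 members other than Ly6c2 above 10 TPM, and its F13a1 (379 TPM) and Ms4a6c (371 TPM) were the highest of its gate. Camp, a neutrophil late granule gene, was at 5.85 TPM in cell 70, within the range of the GMP Mono cells. Mono cells 1 and 33 of the GMP gate lacked the same markers, with Irf8, Csf1r and Ly86 at 0 TPM and Gfi1 at 341 and 337 TPM. Read depth is unknown, and the number of genes detected stands in for it: a median of 5611 in the GMP gate against 4143 in the other gate, and 2936 in Myelo-2 cells alone.

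Promoter windows of 250 bases before to 50 bases after the start site were found in RefSeq (GRCm38.p6) for 7 of the 8 genes, as 9 windows. They were searched on both strands for 4 motifs of factors known in these lineages. The PU.1 motif GAGGAAGT, for a factor needed in both branches, was present in windows of Ly6c2, F13a1 and Ctss, and 3.20% of all 32851 windows held it. A window with the motif is shown for each of the 3 genes. They are the member that persisted in granulocyte states and the effector genes, most of whose values there were near 0. The other F13a1 window (chr13:37050195-37050494) had 0 matches. The other Ly6c2 window (chr15:75111888-75112187) overlaps the window shown and had 2 matches. Capitals mark the motif, which reads ACTTCCTC on the strand of Ctss.
Ly6c2 promoter, chr15:75111922-75112221, minus strand: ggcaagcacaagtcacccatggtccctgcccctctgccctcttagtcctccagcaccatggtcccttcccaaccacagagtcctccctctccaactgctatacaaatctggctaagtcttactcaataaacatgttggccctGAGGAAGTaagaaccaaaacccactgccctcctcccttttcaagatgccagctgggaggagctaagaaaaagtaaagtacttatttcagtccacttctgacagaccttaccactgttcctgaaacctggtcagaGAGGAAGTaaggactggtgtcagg
F13a1 promoter, chr13:37049164-37049463, minus strand: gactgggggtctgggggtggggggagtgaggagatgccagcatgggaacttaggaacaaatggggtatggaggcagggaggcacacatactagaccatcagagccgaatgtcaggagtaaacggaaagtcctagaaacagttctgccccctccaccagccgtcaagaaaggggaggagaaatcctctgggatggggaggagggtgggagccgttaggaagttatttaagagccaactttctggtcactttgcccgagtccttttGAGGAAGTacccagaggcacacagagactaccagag
Ctss promoter, chr3:95526536-95526835, plus strand: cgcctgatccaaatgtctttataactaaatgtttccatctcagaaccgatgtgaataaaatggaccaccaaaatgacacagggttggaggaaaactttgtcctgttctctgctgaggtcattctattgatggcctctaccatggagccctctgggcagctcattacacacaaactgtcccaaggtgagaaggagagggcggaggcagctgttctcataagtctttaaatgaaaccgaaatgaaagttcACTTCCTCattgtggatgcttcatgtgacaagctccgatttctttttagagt
The C/EBP motif TTGCNNAA (10.8% of all windows), the PU.1-IRF composite of GGAA, any 2 bases and GAAA (2.72%) and the GFI1 motif of AAATCA, any 2 bases and GC (0.785%) had no match in the 9 windows, which says only that these letters are not in them. The windows of the neighbouring paralogs Ms4a6b and Ms4a6c are shown because the pair is alike in sequence and differed in level. They were 85.3% identical over 225 aligned columns, and capitals mark their longest shared run of 48 bases.
Ms4a6b promoter, chr19:11518309-11518608, plus strand: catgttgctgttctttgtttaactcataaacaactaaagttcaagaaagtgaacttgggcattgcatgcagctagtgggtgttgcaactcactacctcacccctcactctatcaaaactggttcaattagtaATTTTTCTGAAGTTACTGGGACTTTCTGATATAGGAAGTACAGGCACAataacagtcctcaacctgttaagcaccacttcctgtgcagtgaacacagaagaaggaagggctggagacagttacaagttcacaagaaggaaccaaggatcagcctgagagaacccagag
Ms4a6c promoter, chr19:11469118-11469417, plus strand: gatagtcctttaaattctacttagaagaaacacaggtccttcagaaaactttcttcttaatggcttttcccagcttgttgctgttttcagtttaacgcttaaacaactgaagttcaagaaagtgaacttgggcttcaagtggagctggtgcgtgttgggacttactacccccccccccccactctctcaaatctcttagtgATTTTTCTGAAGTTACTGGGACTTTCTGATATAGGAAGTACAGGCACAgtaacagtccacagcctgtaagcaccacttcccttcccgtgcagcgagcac

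The genes fell into unlike patterns over the states. Ly6c2 was at 765 TPM or more in all but 1 of the Mono, cMoP and Gran cells of both gates. Ly86 was above 10 TPM in 24 of 27 Mono and cMoP cells and in 0 of 8 Gran cells of the same gate. Ccr2 and Ctss were mostly found in Mono, cMoP and MP cells, and F13a1 in Mono and cMoP cells and in 2 of 4 Gran-1 cells of the CD11b+ GMP-P gate. Ms4a6b, Ms4a6c and Cd14 were held by some cells of several states, Gran cells included.

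**Figure D1:**
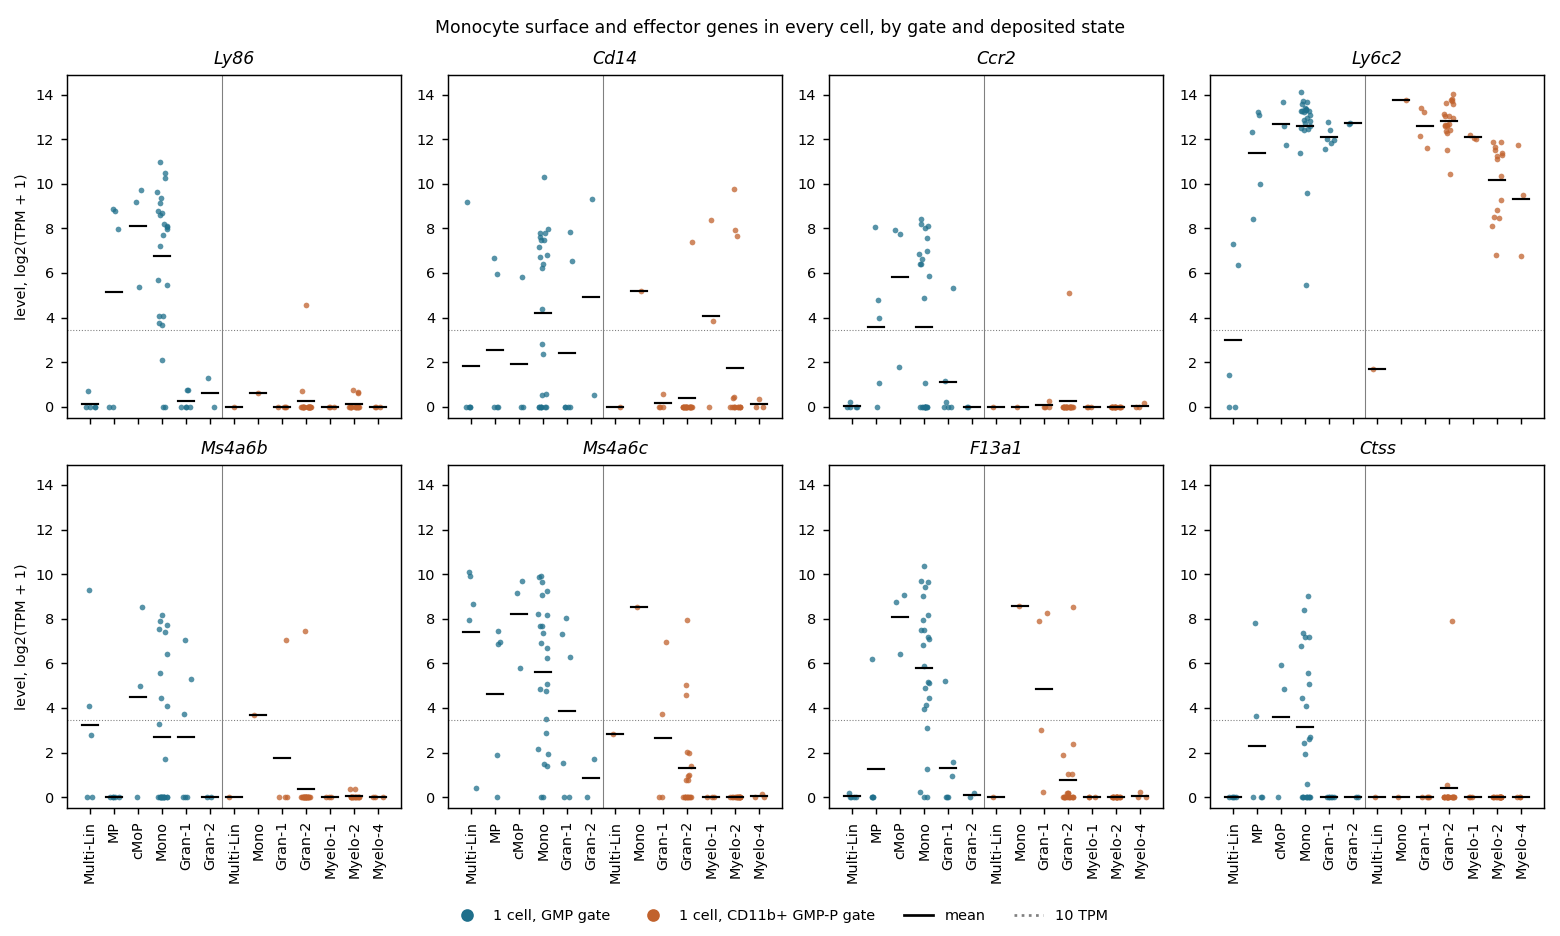
Level of each gene on the log2(TPM + 1) axis in every cell, by deposited state, for the GMP gate (left of the grey line, blue) and the CD11b+ GMP-P gate (right, orange). Points are cells, spread sideways at random, black bars are means, and the dotted line is 10 TPM. Ly6c2 alone stays high across the Gran states, while Ly86 lies at or below 1.42 TPM in all 8 Gran cells of the GMP gate.

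Ly86 encodes MD-1, the partner of the Toll-like receptor homolog RP105. In the 24 Mono cells it ranged from 0 to 2022 TPM with a median of 259 TPM, and 21 cells were above 10 TPM (87.5%, exact Clopper-Pearson 95% interval 67.6 to 97.3; intervals here cover counting error only). The 3 cMoP cells had 40.4, 586 and 845 TPM. The 5 MP cells were split, with 253, 444 and 471 TPM in 3 of them and 0 TPM in the other two. Those 3 MP cells were also the ones with Ccr2 above 10 TPM. No Gran cell of the GMP gate passed 1.42 TPM, so the Mono and Gran groups overlapped only through the 2 Mono cells at 0 TPM, the next Mono cell being at 3.21 TPM. A count of 0 of 8 allows a share of up to 37.5%. Among the 24 Gran cells of the CD11b+ GMP-P gate, 1 was above 10 TPM, at 22.7 TPM, and all 21 Myelo cells were at or below 0.67 TPM.

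Cd14 encodes the lipopolysaccharide co-receptor. It was above 10 TPM in 13 of 24 Mono cells (54.2%, 32.8 to 74.4), with a median of 46.6 TPM and a highest value of 1252 TPM. Of the cMoP cells 1 of 3 held it, at 55.1 TPM, and of the MP cells 2 of 5, at 60.1 and 102 TPM. Cd14 was not limited to cells with monocyte names. The 8 Gran cells of the GMP gate had 0 TPM in 4 cells, and 0.45, 92, 225 and 645 TPM in the others, so the groups overlapped throughout. In the CD11b+ GMP-P gate it was at 168 TPM in 1 of 20 Gran-2 cells. It was at 13.3 and 334 TPM in 2 of 3 Myelo-1 cells, and at 200, 243 and 860 TPM in 3 of 15 Myelo-2 cells (20%, 4.33 to 48.1). One Multi-Lin cell of the GMP gate had 587 TPM and the other four had 0.

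Ccr2, the chemokine receptor that monocytes use to leave the marrow, was either off or well above 10 TPM in most Mono cells. It was at 0 TPM in 11 Mono cells, at 1.12 TPM in 1, and between 28.8 and 339 TPM in the other 12 (50%, 29.1 to 70.9). The cMoP cells had 2.47, 213 and 244 TPM, and the MP cells 0, 1.09, 15, 26.6 and 268 TPM, within the range of the Mono cells. Of the 8 Gran cells of the GMP gate, 1 Gran-1 cell had 38.9 TPM and the others 1.24 TPM or less. Of the CD11b+ GMP-P cells 1, a Gran-2 cell, had 33.3 TPM, and all the other 46 cells were at or below 0.20 TPM.

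Ly6c2, the sorting marker, had the highest median TPM of the 8 genes in the Mono, cMoP, MP, Gran and Myelo states. Its median was 9220 TPM in Mono cells (lowest 43.1, highest 17680), and the cMoP cells had 3456, 6200 and 12888 TPM. The MP cells had 337, 1001, 5150, 8730 and 9522 TPM, the 3 highest being the cells that also held Ly86. Gran cells of the same gate lay inside the Mono range, in its lower part: their median was 4788 TPM against 8798 TPM in Mono and cMoP cells together, while mean log2(TPM + 1) was 12.25 ± 0.47 and 12.60 ± 1.68. Gran-1 cells of the GMP gate ranged from 3063 to 6965 TPM, and its 2 Gran-2 cells had 6659 and 6869 TPM. In the CD11b+ GMP-P gate the median was 6961 TPM in 4 Gran-1 cells and 7277 TPM in 20 Gran-2 cells (lowest 1384, highest 16590). The 3 Myelo-1 cells had 4171, 4223 and 4714 TPM. The GMP Multi-Lin cells were far below, at 0, 0, 1.68, 80.4 and 155 TPM.

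In Myelo-2 cells Ly6c2 ranged from 111 to 3797 TPM with a median of 2182 TPM, below all but 1 of the Gran-2 cells at the median. Late granule genes went the other way. The 15 genes of that list, which also holds the cytosolic S100a8, summed to 394902 to 613002 TPM in Myelo-2 cells and 25912 to 305056 TPM in Gran-2 cells. TPM has a fixed total, and the part of this in the lower Ly6c2 level was not tested. As deposited, mean log2(TPM + 1) was 12.84 ± 0.85 in Gran-2 (SD, n = 20 cells) and 10.15 ± 1.66 in Myelo-2 (n = 15 cells), a difference of 2.69. With granule genes taken out of the TPM total it was 1.96. After each cell was scaled so that 808 widely detected genes had the same median it was 0.04, beside a median over all genes of 0.50 on that scale and 1.04 as deposited. The order of Gran-2 and Myelo-2 therefore rests on the scale. On the last scale Myelo-4 cells had the highest mean of all states (15.10 ± 3.03, n = 3 cells). That scale raised them from 108 to 3463 TPM as deposited to 3318 to 187710, with a median of 2192 genes detected. The part of this scaling in the Myelo-4 mean was not tested.

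**Figure D2:**
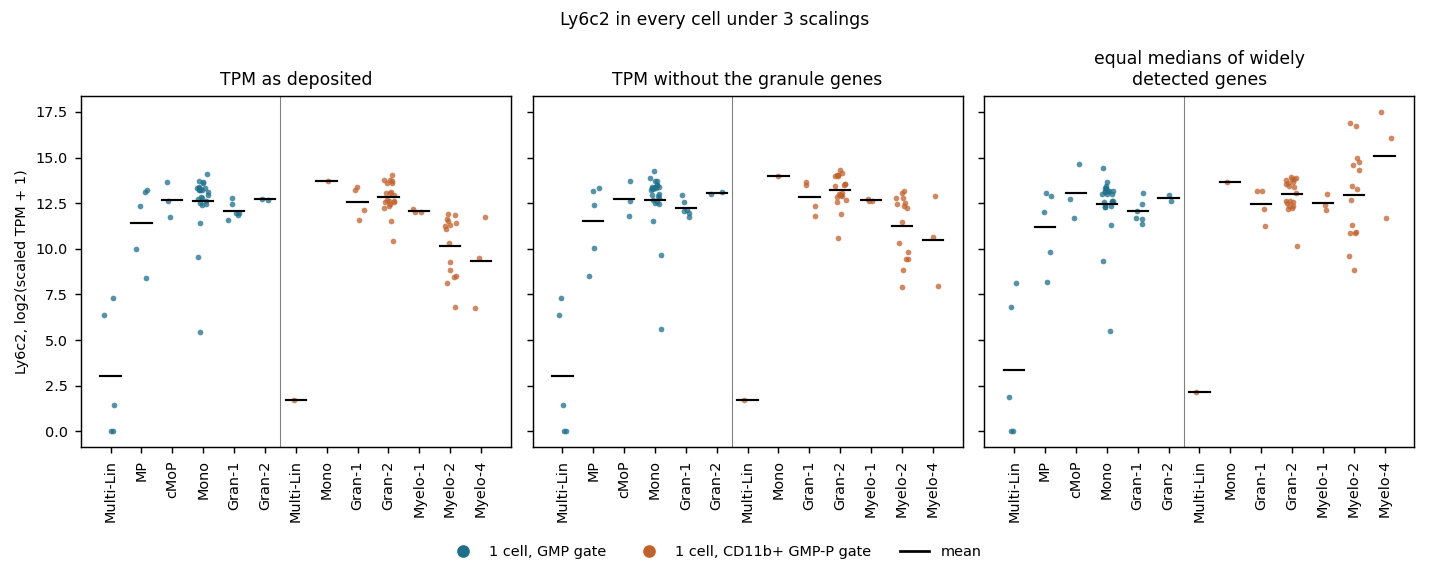
Ly6c2 in every cell on the log2(scaled TPM + 1) axis, as deposited, with granule genes taken out, and with equal medians of widely detected genes. Points are cells, black bars are means, blue is the GMP gate and orange the CD11b+ GMP-P gate. Mono, cMoP and Gran cells keep means between 12.05 and 13.98 in all 3 panels, cell 70 included, while Myelo-2 moves from a mean of 10.15 to 12.94.

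Counting of Ly6c2 carries an uncertainty from its relatives. The annotated transcripts of Ly6c2 and Ly6c1 are 97.6% identical, and 5.79% of 150-base windows of Ly6c2, the read length, occur unchanged in Ly6c1. Among cells above 100 TPM of Ly6c2, Ly6c1 was counted at a median of 0.831% of its TPM in the GMP gate and 0.854% in the other gate. Ly6a, which encodes the stem cell antigen Sca-1, was counted at 0.914% and 1.04%, and its transcript shares 0 of the 150-base windows (84.0% identity). Whether the Ly6c1 and Ly6a counts are reads of Ly6c2 was not tested.

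Ms4a6b and Ms4a6c belong to the membrane-spanning 4A family, whose products sit in the plasma membrane of blood cells. Ms4a6c was the more widely held of the pair, above 10 TPM in 17 of 24 Mono cells (70.8%, 48.9 to 87.4) with a median of 88 TPM and a highest value of 959 TPM. The 3 cMoP cells had 55.1, 569 and 831 TPM. Multi-Lin cells were as high, with 0.33, 243, 408, 954 and 1107 TPM, and no order of cMoP, Multi-Lin and Mono stood beyond their SD. The 3 Multi-Lin cells with most Ms4a6c (cells 14, 17 and 23) also held the mast cell and basophil gene Ms4a2 at 1035, 2435 and 1179 TPM. In the 5 Multi-Lin cells the whole basophil and mast cell list summed to 963 to 13484 TPM, with 8 of 10 genes above 10 TPM in some cell, against 0.32 to 1613 TPM in Mono and cMoP cells. The part of such cells in the Ms4a6c level was not tested. Among Gran-1 cells of the GMP gate 3 of 6 were above 10 TPM, at 77.9, 156 and 262 TPM, which is inside the Mono range. In the CD11b+ GMP-P gate 2 of 4 Gran-1 cells (12.1 and 123 TPM) and 3 of 20 Gran-2 cells (23.1, 31.3 and 246 TPM) held it, and 0 of 15 Myelo-2 cells.

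Ms4a6b was above 10 TPM in 9 of 24 Mono cells (37.5%, 18.8 to 59.4), with a highest value of 284 TPM. The cMoP cells had 0, 31 and 363 TPM, and all 5 MP cells were at 0 TPM. Its highest value, 616 TPM, was in a Multi-Lin cell, the one that also had the highest Ms4a6c. Of the 11 Mono and cMoP cells with Ms4a6b, 10 also held Ms4a6c, while 10 cells held Ms4a6c without Ms4a6b. The Gran-1 cells of the GMP gate had 0, 0, 0, 12.2, 38.2 and 131 TPM, and their mean log2(TPM + 1) of 2.68 ± 3.12 matched the Mono mean of 2.67 ± 3.30. Transcripts of the pair are 89.3% identical. They share 0 of the 150-base windows and 6.11% of the 50-base windows of Ms4a6b unchanged. Whether reads were split between them was not tested.

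F13a1 encodes the catalytic subunit of coagulation factor XIII, which cross-links fibrin and is made by monocytes. It was above 10 TPM in 19 of 24 Mono cells (79.2%, 57.8 to 92.9), with a median of 85.5 TPM and a highest value of 1301 TPM. The 3 cMoP cells had 84.8, 433 and 530 TPM. Of the MP cells 4 of 5 were at 0 TPM and 1 had 72.4 TPM, so 2 of the 3 MP cells with Ly86 lacked F13a1. Gran-1 cells of both gates included holders: in the GMP gate 1 of 6 was above 10 TPM (36.5 TPM), and in the CD11b+ GMP-P gate the 4 cells had 0.18, 7.17, 236 and 302 TPM. Gran-2 cells of the CD11b+ GMP-P gate were above 10 TPM in 1 of 20, at 368 TPM, and 7 others were detected between 0.12 and 4.19 TPM. No Myelo cell passed 0.16 TPM.

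Ctss encodes cathepsin S, the lysosomal protease that trims invariant chain for antigen presentation. It was above 10 TPM in 10 of 24 Mono cells (41.7%, 22.1 to 63.4), with a median of 4.72 TPM and a highest value of 513 TPM. Of the cMoP cells 2 of 3 held it (28 and 59.3 TPM), and of the MP cells 2 of 5 (11.3 and 222 TPM). It was at 0 TPM in all 8 Gran cells of the GMP gate, a count that allows a share of up to 37.5%. It was also at 0 TPM in all 21 Myelo cells, which allows up to 14.3%, and in all 4 Gran-1 cells of the CD11b+ GMP-P gate. Among the 20 Gran-2 cells of that gate 1 had 234 TPM and 1 had 0.44 TPM.

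Ranked by mean log2(TPM + 1) over the 10 gate and state groups with 3 or more cells, cMoP stood first for Ly86, Ccr2, Ms4a6b, Ms4a6c, F13a1 and Ctss. Mono stood first for Cd14, and Gran-2 of the CD11b+ GMP-P gate for Ly6c2. In every one of the 8 orders the gap between the first and second group was smaller than the larger of their SDs. Only 2 gaps between neighbours were larger than that SD. They were MP over the next group for Ly86 (5.13 ± 4.70 against 0.26 ± 1.02) and Myelo-4 over Multi-Lin for Ly6c2 (9.34 ± 2.5 against 3.01 ± 3.54).

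Within the GMP gate, the 27 Mono and cMoP cells were set against the 8 Gran cells. A gene counted as higher or lower where mean log2(TPM + 1) differed by 1 or more (2-fold), provided that 25% or more of the cells on one side or the other had the gene above 0. This scale understates differences of low genes. Of the 8 members 5 were higher and 0 lower, beside 20.8% higher and 9.89% lower among 8816 genes. Ctss passed the detection filter through the Mono and cMoP side alone, so it could only be higher, and the other 7 passed on both sides. Passing on both sides did not leave every call open. Ly86 and Ccr2 averaged 0.35 and 0.84 in the Gran cells, too low for a call of lower, and F13a1 was at the edge of that limit. Of the 5 higher members only Ms4a6c, at 3.11 in Gran cells, was well above it. This count therefore supports nothing by itself. Ly86 had the largest difference of the members (6.90 ± 3.10, n = 27, against 0.35 ± 0.51, n = 8, a difference of 6.55). F13a1 followed with 5.04, then Ctss with 3.19, Ccr2 with 2.97 and Ms4a6c with 2.79. Cd14 (0.91), Ms4a6b (0.87) and Ly6c2 (0.35) were under 2-fold. For Cd14 the value rested on the summary used, at -0.07 from mean TPM and 4.13 from medians, and on single Gran cells, at 1.41 without cell 29, 1.59 without cell 40 and 1.81 without cell 32. For Ms4a6b it ran from 0.00 with medians to 1.59 without cell 29, 1.34 without cell 40 and 1.11 without cell 13. Genes detected were alike in the 2 groups, with medians of 5636 and 5490.

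**Figure D3:**
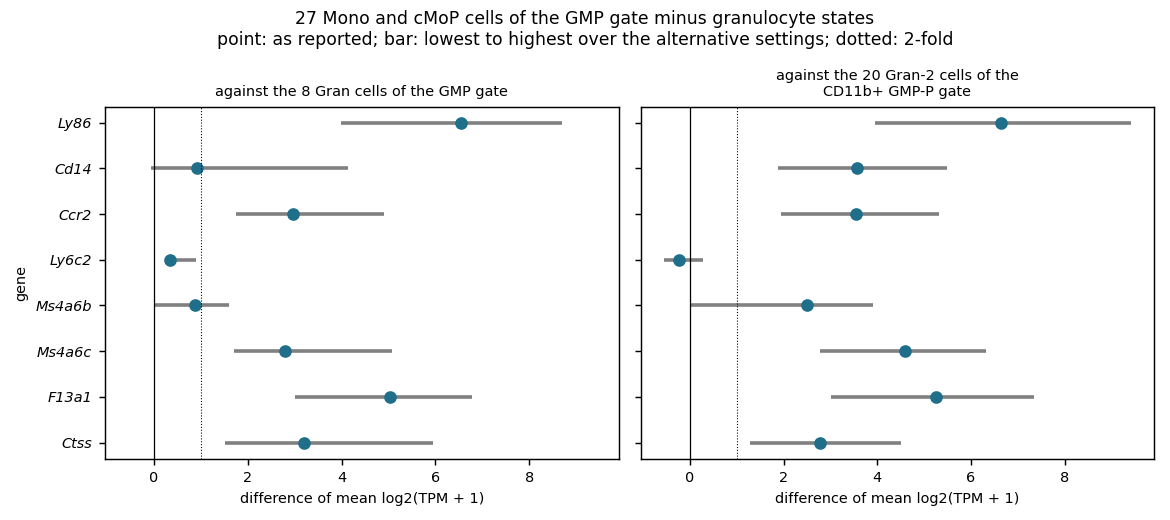
Difference of mean log2(TPM + 1) between the 27 Mono and cMoP cells of the GMP gate and Gran cells, for 8 Gran cells of the same gate (left) and 20 Gran-2 cells of the CD11b+ GMP-P gate (right). Points are the differences as reported, grey bars run from the lowest to the highest value over the alternative settings, and the dotted line is 2-fold. Ly6c2 lies near 0 in both panels, at 0.35 and -0.23, and Ly86 is farthest right, at 6.55 and 6.64.

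Against the 20 Gran-2 cells of the other gate, 7 of 8 members were higher and 0 lower, beside 26.4% higher and 5.54% lower among 8360 genes. Of the 7, Ly86, Cd14, Ccr2, Ms4a6b and Ctss passed the filter only through the Mono and cMoP side and could only be higher. F13a1 averaged 0.77 in Gran-2 cells, too low for a call of lower, so this count supports nothing by itself. Differences ran from 2.5 for Ms4a6b to 6.64 for Ly86, and Ly6c2 was at -0.23, or 0.28 with medians. Ms4a6b came to 0.00 with medians, since most cells on both sides were at 0. With 14 pairs of cells matched on genes detected, Ly86 was at 6.55, F13a1 at 5.49, Ms4a6b at 1.93 and Ly6c2 at -0.55. State, gate, date and run cannot be told apart in this comparison.

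Between the whole gates, GMP minus CD11b+ GMP-P, 7 members were higher and 0 lower, beside 39% higher and 2.72% lower among 7803 genes. Here too 5 members, the same ones by name, passed the filter only through the GMP side. F13a1 averaged 0.93 in the CD11b+ GMP-P gate, too low for a call of lower. Ly6c2 was the exception, with means of 11.34 ± 3.50 (n = 45) and 11.47 ± 2.34 (n = 47) and a difference of -0.13. Its size was not fixed: scaling to equal medians gave -1.51, against -1.81 in 25 pairs of cells matched on genes detected and -1.06 without the Myelo states. Its sign turned with a pseudocount of 10 (0.03), from mean TPM (0.25) and from medians (0.66). With medians only 3 members, Ms4a6c (6.69), Ly86 (5.37) and F13a1 (4.12), were 2-fold higher, and Cd14 (0.57), Ccr2 (0.23), Ms4a6b and Ctss (0.00 each) were not. The shares over all genes given above are for means, not for medians.

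Against the 5 MP cells, 6 of 8 members were higher in Mono and cMoP cells and 0 lower, beside 12.9% higher and 21.8% lower among 8482 genes. F13a1 differed by 4.79 and Ms4a6b by 2.88, and both passed the filter through the Mono and cMoP side alone. Ly86 (1.76), Cd14 (1.41), Ms4a6c (1.27) and Ly6c2 (1.2) differed by less than the SD of either group, as did Ctss (0.90) and Ccr2 (0.23), which were under 2-fold. The count came to 3 with medians or with a pseudocount of 10, and also without MP cell 10 or cell 45. The shares over all genes above are for means of log2(TPM + 1) over all cells, not for these settings.

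The 3 cMoP cells were then set against the 24 Mono cells. Ms4a6c (2.61), F13a1 (2.30), Ccr2 (2.27), Ms4a6b (1.83) and Ly86 (1.35) were higher in cMoP cells and Cd14 (-2.25) was lower, beside 20.6% higher and 25% lower among 9296 genes. Each of these differences was smaller than the SD of the Mono cells. Ms4a6b came to -0.17 without cMoP cell 11, the cell with 363 TPM. From mean TPM 2 members were higher and 2 lower, while the shares over all genes above are for means of log2(TPM + 1).

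Within the CD11b+ GMP-P gate only 4 of the 8 members were detected in enough cells to compare Gran-2 with Myelo-2. Ly6c2 (2.69) and Ms4a6c (1.32) were higher in Gran-2 and Cd14 (-1.37) was lower, beside 51.2% higher and 2.62% lower among 7334 genes, so the higher share is that of the background. Ms4a6c passed the filter through Gran-2 alone and Cd14 through Myelo-2 alone, so each could be called only in the direction given. With medians Cd14 was at 0.00 and with a pseudocount of 10 at -0.83, a 50% filter left it out, and Ms4a6c was at 0.38 and 0.49 in the first 2 of these. F13a1 was at 0.77. Genes detected had medians of 4595 in Gran-2 and 2936 in Myelo-2 cells, and their part in these differences was not tested.

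Persistence in granulocyte states was read at 10 TPM. Ly6c2 was held by 8 of 8 Gran cells of the GMP gate (100%, 63.1 to 100) and by 24 of 24 in the CD11b+ GMP-P gate (100%, 85.8 to 100). In the GMP gate Cd14, Ms4a6b and Ms4a6c were each held by 3 of 8 Gran cells (37.5%, 8.52 to 75.5), Ccr2 and F13a1 by 1 of 8 (12.5%, 0.316 to 52.7), and Ly86 and Ctss by 0. In the CD11b+ GMP-P gate Ms4a6c was held by 5 of 24 Gran cells (20.8%, 7.13 to 42.2), F13a1 by 3 (12.5%, 2.66 to 32.4) and Ms4a6b by 2. Ly86, Cd14, Ccr2 and Ctss were each held by 1 of 24 (4.17%, 0.105 to 21.1). In the 21 Myelo cells Ly6c2 was held by all, Cd14 by 5 (23.8%, 8.22 to 47.2), and the other 6 genes by 0, which allows up to 14.3% for each.

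**Figure D4:**
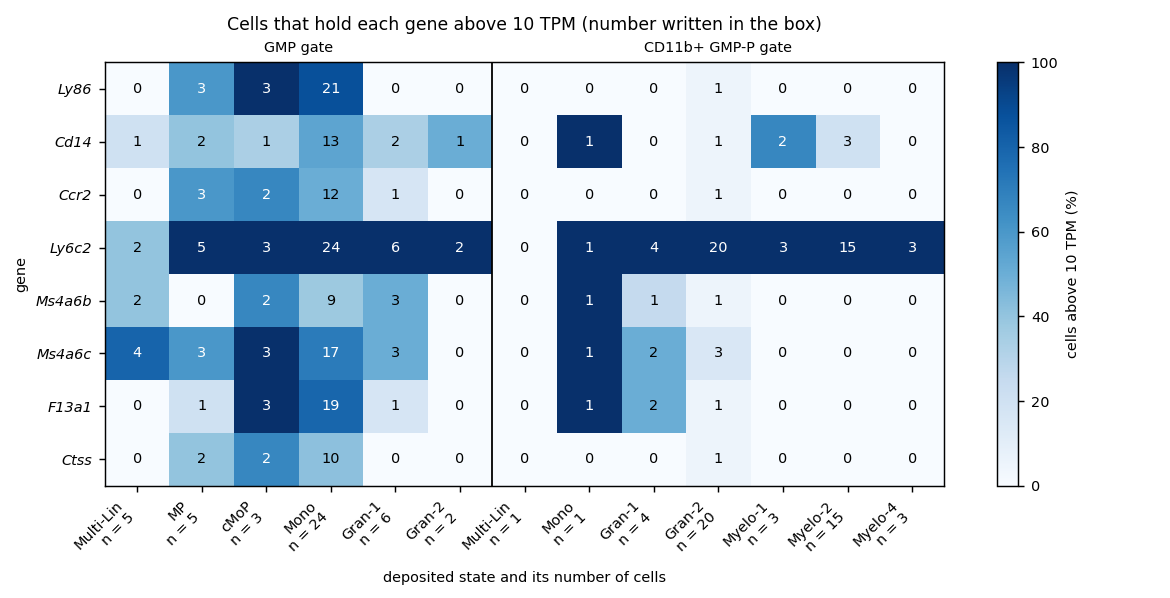
Share of cells above 10 TPM for each gene (rows) in each gate and state (columns), as shade from 0 to 100%, with the number of cells written in each box. Ly6c2 fills its row apart from Multi-Lin, and in the Myelo columns Cd14 is the only other gene with any cell.

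One Gran-2 cell of the CD11b+ GMP-P gate, cell 62, held 6 of the 7 genes other than Ly6c2. It was singled out after its values were seen. It held Ly86 at 22.7, Ccr2 at 33.3, Ms4a6b at 176, Ms4a6c at 246, F13a1 at 368 and Ctss at 234 TPM, and Ly6c2 at 16590 TPM, the highest of its gate, with Cd14 at 0. It was the only one of the 24 Gran cells of that gate above 10 TPM for Ly86, Ccr2 or Ctss. It also had Irf8 at 292 TPM and Csf1r at 65.6 TPM, while Gfi1 was at 0.35 TPM. Of the late granule list, S100a8 was at 48258 TPM and Camp at 1.91 TPM, the lowest Camp value of the Gran-2 cells of that gate. The 5308 genes detected in cell 62 lay within the 2629 to 5743 of its state. No doublet caller was run, so whether it was 1 cell was not tested. Without it the GMP Mono and cMoP difference from Gran-2 moved from 6.64 to 6.86 for Ly86 and from 2.77 to 3.16 for Ctss, and Ms4a6c in Gran-2 minus Myelo-2 from 1.32 to 0.97, under 2-fold.

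Counting how many of the 7 genes other than Ly6c2 a cell held above 10 TPM, Mono cells held 2 to 7 with a median of 4, and the cMoP cells 4, 6 and 6. The MP cells held 1, 1, 3, 4 and 5. Gran cells of the GMP gate held 0 to 3 (median 1.5). In the other gate 16 of 20 Gran-2 cells and 12 of 15 Myelo-2 cells held 0. Mono cells 36 and 42 held all 7. Over the 27 Mono and cMoP cells these 7 genes went together only weakly. With Ly6c2 their r ran from -0.24 (Ms4a6c) to 0.59 (Ly86). The 21 pairs among the 7 genes had Pearson r from -0.30 (Cd14 with Ccr2) to 0.48 (Ly86 with F13a1), with a median of 0.08, over cells that share a gate and date code. Cd14 and Ccr2, held by 14 cells each, were both held by 5. The number of members held had r = -0.45 with Gfi1, -0.31 with Elane, the neutrophil elastase gene, 0.31 with Ly6c2, 0.24 with genes detected and 0.00 with Irf8, which are no more than descriptions in sparse data.

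**Figure D5:**
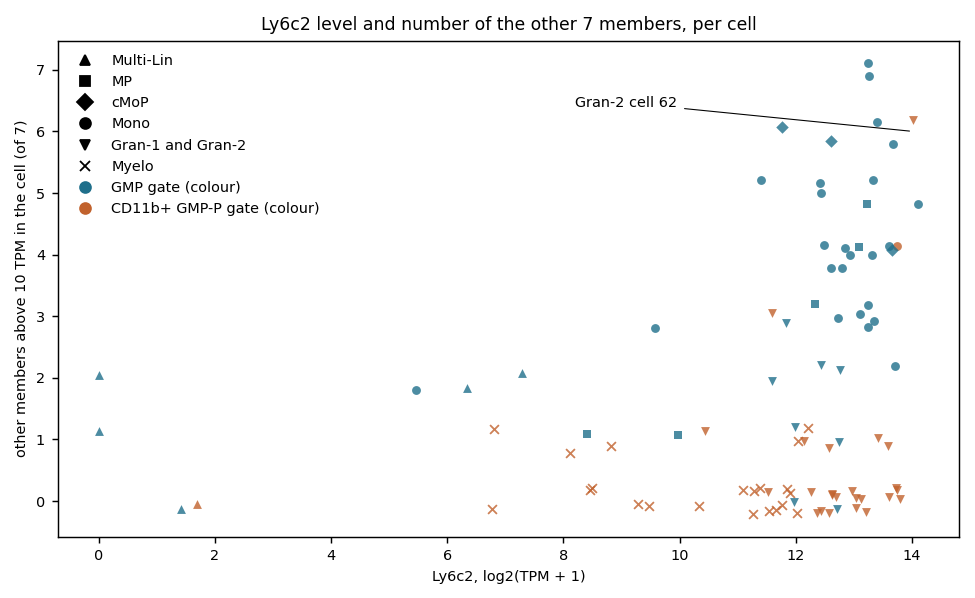
Number of the 7 other members above 10 TPM in a cell (vertical axis, spread slightly at random around whole numbers) against Ly6c2 on the log2(TPM + 1) axis, 1 mark per cell with shape for state and colour for gate. At like Ly6c2 levels Mono cells of the GMP gate hold 2 to 7 of the genes, while most Gran cells of the CD11b+ GMP-P gate hold 0. Gran-2 cell 62 of that gate holds 6. Most Myelo cells also hold 0, at 108 to 4714 TPM of Ly6c2, below most Mono cells.

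The 3 genes most alike each member, by Pearson r of log2(TPM + 1) over the 45 GMP cells among 7550 detected genes, were listed as a description. Ly86 was most like Irf8 (r = 0.84), Tifab (0.79) and F13a1 (0.68), and F13a1 was most like Ly86 (0.68), Tmem243 (0.66) and Irf8 (0.65). Ly86 and F13a1 are also neighbours on chromosome 13 in RefSeq, with 4 annotated genes between them, 0 of them coding. Ly6c2 was most like Ly6a (0.91) and Ly6c1 (0.86), the relatives named above, and Tmed3 (0.82), which had r = -0.04 within the 24 Mono cells. For Ms4a6c the genes were Lgals3bp (0.60), S100a10 and Tmsb10 (0.57 each). For Ms4a6b they were Zfp830, Ift46 (0.57 each) and Bnip3 (0.52), and for Cd14 Faim (0.58), Nup210 (0.57) and Stk24 (0.52). Ccr2 was most like Mrps18a, Tmem69 and Slc36a1os (0.56 each), and Ctss like Hist1h3i (0.64), Bmyc (0.62) and Serpinf1 (0.54). Of the 24 genes 13 were also among the first 3 by Spearman's rho, and 5 were within the 24 Mono cells alone. Within Mono cells r was between 0.31 (F13a1 with Irf8) and 0.97 (Ly6c2 with Ly6a) for all of them but Tmed3.

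The families around the members were read in the same way, Mono and cMoP minus Gran within the GMP gate. Over all 8816 genes 20.8% were higher and 9.89% lower. Of 18 Toll and lipopolysaccharide receptor genes 13 were detected enough, with 1 higher (Ly86) and 3 lower, namely the Toll adaptor gene Ticam1 (-1.39), Lbp, the lipopolysaccharide-binding protein (-1.36), and the kinase gene Irak4 (-1.32), and a median of 0.00. Tlr4, the lipopolysaccharide receptor itself, averaged 0.98 ± 2.27 and 0.22 ± 0.40. Of the Ms4a family 5 of 17 genes were assessed. Ms4a6c and Tmem176b (1.07) were higher and Ms4a3, a gene of granulocyte-monocyte progenitors, was lower (11.11 ± 0.91 against 12.19 ± 0.52). Of 10 Ly6 genes 6 were assessed, and Ly6e alone was higher, by 2.39. Of 25 chemokine receptor and ligand genes 9 were assessed, with 5 higher and 0 lower: Ccr2, Ccl9 (2.66), Ccrl2 (2.55, listed at 0 in all Gran cells), Ccl3 (2.39) and Ccl4 (1.07). Of 22 cathepsin and cystatin genes 14 were assessed, with 3 higher, Ctss, Ctsh (2.22) and Ctsz (1.15), and 0 lower. Of 15 coagulation and fibrin genes 6 were assessed, and F13a1 was higher and Plau, the urokinase gene, lower (-1.07). The higher shares of the Ly6, cathepsin and coagulation lists were near that of all genes.

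The same comparison in other programmes gave the setting, beside the same 20.8% higher and 9.89% lower over all genes. Of 14 assessed monocyte genes outside the set 6 were higher, led by Irf8 (5.51), Klf4 (2.88) and Csf1r (2.80), and 2 lower, Clec12a and Cybb (-1.09 each). Of 12 late granule genes 9 were lower and 1 higher, with a median of -1.90. The list summed to 52 to 13850 TPM in Mono and cMoP cells and 1010 to 106524 TPM in Gran cells. Of 11 macrophage genes, 6 were at 0 in all 27 Mono and cMoP cells, as were 6 of 13 dendritic cell genes. Of the 11 macrophage genes, 6 were also at 0 in every Gran cell of the same gate. In Gran-2 cells of the other gate 7 of them were at 0 in every cell. The 2 macrophage genes detected enough to compare were lower than in Gran cells: Slc40a1, the iron exporter gene (0.87 ± 2.05 against 4.75 ± 3.20), and Vcam1, an adhesion molecule gene (0.61 ± 1.64 against 3.61 ± 4.22). The macrophage list summed to a median of 0.17 TPM in Mono and cMoP cells, 160 TPM in Gran cells of the same gate and 272 TPM in Gran-2 cells of the other gate, and its part in the Gran values was not tested.

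Against the Gran-2 cells of the other gate the families gave 3 higher and 1 lower of 11 Toll and lipopolysaccharide genes, 4 and 0 of 5 Ms4a genes, and 1 and 0 of 6 Ly6 genes. They gave 6 and 0 of 9 chemokine genes, 6 and 0 of 13 cathepsin and cystatin genes, and 2 and 2 of 6 coagulation genes. Over all genes 26.4% were higher and 5.54% lower in this comparison, and genes near 0 in Gran-2, such as Ccl6 (0.00), Ccl4 (0.05), Ccr2 (0.26) and Ccrl2 (0.30 mean log2(TPM + 1)), could only be called higher. Tmem176b differed by 4.78, Ctsc, the protease that activates granule enzymes, by 3.36, and Ly6e by 2.32. Against MP cells the counts higher and lower were 3 and 3 of 12, 2 and 2 of 5, 2 and 0 of 5, 3 and 1 of 9, 2 and 2 of 14, and 3 and 0 of 5, in the same order of families, beside 12.9% and 21.8% over all genes.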

How the data were processed

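The deposited expression file gives log2 values for 23956 genes in 92 cells. On the linear scale they are TPM plus 1, since TPM sums to 999999.5 to 1000001 in each cell without the Ly6g row, which lies outside that total. Per the submitters' processing notes, Bowtie2, RSEM and the mm9 build were used, and the sources used here give no versions. A second deposited file gives each cell a state number and name, and the sources used here do not say how these were made. There were 0 columns of other samples and 0 pairs of identical cells. No cell was removed. TPM keeps no depth.

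Means of log2(TPM + 1) were compared over cells for 6 pairs of groups, with a 2-fold rule on genes detected in 25% of the cells of either side, and no p-value. The same code was checked on simulated data. Shares carry exact Clopper-Pearson 95% intervals, and a count of 0 the limit of 3 cells. Genes named were the 8 members, the 3 genes most alike each, up to 4 genes per list with the largest difference, and a few reference genes; Tlr4, Ms4a2 and Ly6c1 were named beside them for what they are. The members and lists were chosen with earlier results of these data known. Alternatives were other averages, pseudocounts, scalings, filters, cells matched on genes detected and cells left out. Python 3.11.15, numpy 2.4.6, pandas 2.3.3, scipy 1.17.1, Biopython 1.88 and matplotlib 3.10.9 were used, with RefSeq (GRCm38.p6) promoters.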

Additional observations from a re-analysis of the deposited data

Results flagged for a closer look

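Each set of 4 to 10 cells of 1 gate and state was looked at for a cell far from the rest, and 11 of 27 sets had one; chance flags about 1 in 20 sets, and sets with all other cells at 0 are flagged by any value. All values here are log2(TPM + 1). Among GMP Multi-Lin cells, cell 35 was highest for Ly86 (0.70) and for Cd14 (9.20), cell 26 was highest for Ccr2 (0.21) and lowest for Ms4a6c (0.41), and cell 14 was highest for F13a1 (0.20). Among MP cells, cell 24 was highest for F13a1 (6.20). Among Gran-1 cells of the GMP gate, cell 12 was highest for Ccr2 (5.32) and cell 37 for F13a1 (5.23). Among Gran-1 cells of the CD11b+ GMP-P gate, cell 85 was highest for Cd14 (0.58) and for Ccr2 (0.26), and cell 95 for Ms4a6b (7.04). The 5 highest values of 0.70 and below are under 1 TPM, in sets whose other cells were at 0. The low Ms4a6c value is 0.33 TPM, in a set whose other cells had 243 to 1107 TPM.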

How the results depend on the processing

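No paired analysis was possible because the gates share no cell numbers and cells of a gate are not replicates. Of the summary values, 203 stayed within 1.5 times or the spread of cells over the alternatives and 27 moved; of the values of single genes 600 stayed, 30 moved and 2 that were at least 2-fold turned sign. The cause of each was not tested. The spread of cells was wide, so a value could stay by this rule while its 2-fold call was lost. Ctss between gates came from 1.99 to as low as 0.00 and still stayed in all 11 alternatives. These counts therefore do not show that the calls held. Values under 2-fold turned too, among them those of Ly6c2 and Cd14 given above. The 2 that turned were Ms4a6c against MP with medians (-0.17) and Ms4a6b in cMoP minus Mono without cMoP cell 11 (-0.17). Without cMoP cell 44 the Ms4a6b difference kept its sign, at 4.08. Between gates, 3 members were higher with medians, and 1 was lower with equal medians, matched cells or without Myelo. Against MP, 3 were higher with medians or a pseudocount of 10, and 3 to 6 when each MP cell was left out. For cMoP minus Mono, 2 were higher and 2 lower from mean TPM. For Gran-2 minus Myelo-2 the members' median was 3.14 from mean TPM, 1 was higher with medians, a pseudocount of 10, equal medians or without cell 62, and 0 lower with medians, a pseudocount of 10 or a 50% filter. Members held by at least 50% of Gran cells numbered 4 in the GMP gate at any detection, 2 above 1 TPM and 1 above 10 TPM, and 3 in the CD11b+ GMP-P gate, or 1 above 1 or 10 TPM or without cell 62. No share over all genes at the same setting was set beside these counts of members. The median number of the 7 genes was 0.5 in GMP Gran cells above 100 TPM and 1 in CD11b+ GMP-P Gran cells above 1 TPM. Of the 24 genes most alike, 13 were the same by Spearman's rho and 5 in Mono cells alone.

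Counts over all genes depended more on the setting. A pseudocount of 10 took genes higher between gates from 3044 to 1247, within GMP against Gran from 1837 to 563, against MP from 1090 to 261, cMoP over Mono from 1911 to 839, against Gran-2 from 2209 to 772, and Gran-2 over Myelo-2 from 3756 to 1744. A pseudocount of 0.1 raised them to 4595, 2820 and 1723 in the first 3, and to 3479 against Gran-2. Matching on genes detected gave 1158 higher and 837 lower between gates, against 3044 and 212, and without Myelo 1410 and 408. From mean TPM 2556 genes were higher than in MP and 1271 lower, where logs gave 1090 and 1845. Equal medians gave 2549 higher and 1075 lower for Gran-2 over Myelo-2, against 3756 and 192, and 2238 and 555 between gates. Small states (2 to 6 cells) and unknown depth limit every share of 0.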
